A study of Rattus norvegicus with 10 samples.

Results

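The brightest transcripts of the untreated tibial shaft were the 200 array rows with the highest signal in the contralateral control tibia, of 4803 rows with an accession. They were chosen by the measured control channel alone. On each array the log2 intensity of the control channel was set relative to its median over all rows, and this level was averaged over the 10 arrays. A set of 123 rows, of genes and gene families set apart from the choice, was left out first, which passed over 12 bright rows, 9 of them for ribosomal proteins and the others Alas2, Cox4i1 and Spp1. A row without a gene name could not be left out in this way. Of the 200 members 28 had a gene name (14%, against 24.7% of all rows), and the other 172 were known by their sequence accession only.

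The study asked which genes respond to a single session of bending in the shaft of the rat tibia. Female Wistar rats of 12 weeks received 300 cycles at 2 Hz on the right tibia with the peak set at 60 N (LOAD, n = 5) or were squeezed at the same place without bending (SHAM, n = 5), and both tibiae were taken 6 hours after the session. The left tibia of the same rat was the contralateral control, so all rats carried a treated and an untreated bone, and neither group had an untouched rat. The shaft was freed of its ends, periosteum and marrow before RNA was extracted, and both bones of a rat were hybridized to 1 spotted oligonucleotide array with a dye each. The treated bone was in Cy3 on LOAD 1, 3 and 4 and SHAM 1, 3 and 5, and in Cy5 on the other arrays. For SHAM 1 a label field names LOAD, while its title and description name SHAM, and the array was placed in SHAM.

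The cortical shaft of a long bone is mostly mineralized matrix with osteocytes enclosed in it, osteoblasts on its surfaces and blood vessels running through it. Its RNA therefore mixes transcripts of bone cells with those of blood and marrow cells that remain in the canals. Genes that most cells use for protein folding, protein breakdown, iron storage and defence against peroxide are among the brightest transcripts in many tissues. Brightness on an array also holds how well a probe hybridizes and how well a transcript is labelled, so the order of the members below is one of probe signal and not of transcript number. In bulk tissue fewer cells of a type and less RNA per cell cannot be told apart.

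The arrays differed in ways that touch the members. Array medians of the control intensity ranged from 160.3 to 711.7. In each of the 20 channels all 200 members were given a probability of signal of 0.5 or higher, which held for 49.6% of all rows. The members held 42.4% to 51.7% of the summed control intensity of an array (median 46.1%). A signal of 50000 units or more, a limit set here to mark very bright spots, was reached in at least 1 channel by 21 members and by 0 other rows. The files used here have no column for saturation, so whether these levels are bounds was not tested. The normalized log2 ratios of treated to control opposed each other on some arrays that share a dye orientation, with a correlation across all 4707 rows of -0.32 for LOAD 2 and LOAD 5 and of -0.33 for LOAD 2 and SHAM 2. Labels and file headers gave LOAD 2 the same dyes, which were kept. With its dyes exchanged, counts over 200 rows chosen anew (195 of them members) and a selection of ratios are also given.

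The level of the members ran from 7.69 down to 3.72 on the log2 scale, with a median of 4.8, that is from 207 to 13.2 times the array median, the first being the level of a row above 50000 units in 18 of 20 channels. The 95th percentile over all rows was 3.59. The 5 brightest rows had no gene name (accessions M32510, M17084, M32509, M12201 and Z78279), with mean levels from 7.69 to 7.26. Of these, M17084 and M32509 were above 50000 units in all 20 channels. Around the threshold, Anxa2 at rank 192 had a level of 3.77 and Calm2 at rank 193 a level of 3.76, while Gnas (3.68), Cat (3.68) and Tpm4 (3.64) fell just outside. These differences were far smaller than the spread between rats, which was an SD of 0.53 for Calm2 and 0.56 for Gnas.

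The choice varied little between arrays for most members and more for those near the threshold. Of the 200 members 137 were among the 200 brightest eligible rows on every array and 171 on at least 8. A single array held between 174 and 190 of them. Anxa2 was among the 200 brightest on 2 arrays, Calm2 on 3 and Sod1 on 4. When the treated channel was used in place of the control channel 196 of the 200 were chosen again. The 5 control tibiae of the SHAM rats alone gave 191 of them and those of the LOAD rats 195. Both sets of controls are part of the mean that chose the members, so this overlap follows in part from the choice.

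**Figure D1:**
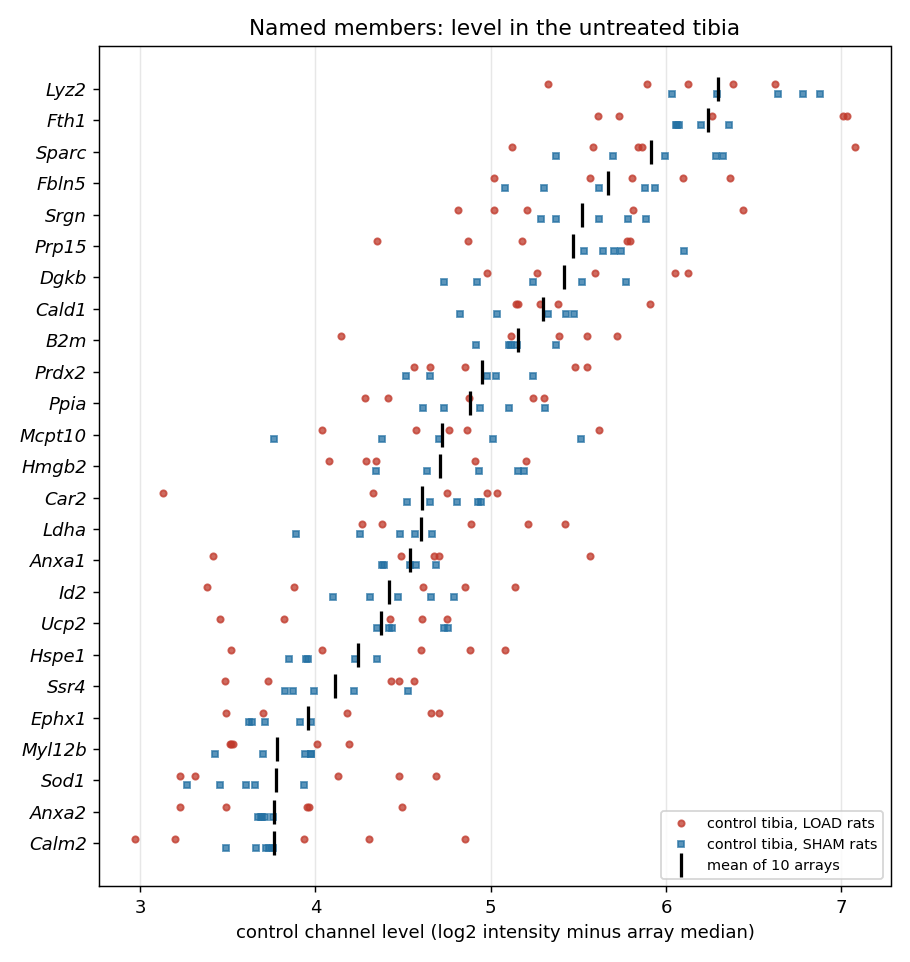
Control channel level of 25 named members (log2 intensity minus the array median) on the 10 arrays, circles for the untreated tibiae of LOAD rats, squares for those of SHAM rats and bars for the mean. Levels ran from a mean of 6.30 for Lyz2 to 3.76 for Calm2, and the points of neighbouring genes overlap.

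Lyz2, the lysozyme of macrophages and granulocytes, was the brightest named member. Its control level was 6.13, 5.33, 6.62, 6.38 and 5.89 in LOAD 1 to 5 and 6.78, 6.04, 6.64, 6.88 and 6.29 in SHAM 1 to 5. LOAD 2 was thus the lowest and the groups overlapped. Fth1, the heavy chain of ferritin that stores iron, had nearly the same mean (6.24 ± 0.47, SD, n = 10, against 6.30 ± 0.47 for Lyz2), with its highest level, 7.03, on the array where Lyz2 was lowest. Sparc (osteonectin), a collagen-binding protein of bone matrix, followed at 5.91 ± 0.55, with levels from 5.12 in LOAD 3 to 7.08 in LOAD 5.

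For all lists here and below, the genes on the array are those of rows with a gene name. List genes among the 3619 rows without one were not counted, so a count of 0 does not cover them. Among genes of the extracellular matrix, 2 of 9 on the array were members, Sparc and Fbln5, which takes part in elastic fibre assembly (level 5.67 ± 0.44). All 6 bone marker genes on the array reached a probability of signal of 0.5 in the 10 control channels. Their levels ranged from 0.77 to 5.91, Sparc being the brightest. Among the proteins of white blood cells 2 of 19 were members, Lyz2 and B2m, the light chain of class I antigen presentation (5.16 ± 0.43). Srgn, the core protein of the granule proteoglycan of blood cells, was at 5.52 ± 0.48, and the mast cell protease Mcpt10 at 4.72 ± 0.58. The macrophage and osteoclast list (3 genes on the array) ranged down to -0.60. The lymphocyte markers (4 genes) ranged from -1.85 to -0.72, and 0 of them had a signal in all 10 control channels.

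Of the red cell marker list (4 genes on the array, levels from -1.69 to 5.24) 0 were members, Alas2 having been set apart. Prdx2, a peroxiredoxin that is abundant in red cells, was at 4.95 ± 0.37, and Car2, the carbonic anhydrase of red cells and osteoclasts, at 4.61 ± 0.56.

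Of 18 genes for redox, metal and detoxification 4 were members (Fth1, Prdx2, Ephx1 and Sod1), the largest number for a list. Sod1, which removes superoxide, was at 3.78 ± 0.52 and the epoxide hydrolase Ephx1 at 3.96 ± 0.43. Of 11 genes for protein folding and secretion 3 were members: the prolyl isomerase Ppia (4.88 ± 0.37), the mitochondrial chaperonin Hspe1 (4.25 ± 0.49) and Ssr4, a subunit at the translocon of the endoplasmic reticulum (4.11 ± 0.38).

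The list of small G proteins, heterotrimeric G proteins and 14-3-3 proteins, which also held annexins and calmodulin, gave 3 of 25. These were the annexins Anxa1 (4.54 ± 0.52) and Anxa2 (3.77 ± 0.33) and the calmodulin gene Calm2 (3.76 ± 0.53). None of its G protein or 14-3-3 genes was a member. Nuclear proteins gave 2 of 15, the chromatin protein Hmgb2 (4.71 ± 0.42) and Id2, an inhibitor of basic helix-loop-helix transcription factors (4.42 ± 0.52). The lactate dehydrogenase gene Ldha (4.60 ± 0.46) was 1 of 24 for energy metabolism, and the regulatory myosin light chain Myl12b (3.78 ± 0.27) 1 of 13 for the cytoskeleton. The energy list did not hold aldolase, Gapdh, cytochrome oxidase and ATP synthase genes, which were set apart. Of those genes Cox4i1 (4.19) was bright enough to be a member. Cald1, an actin-binding protein (5.30 ± 0.29), the lipid kinase Dgkb (5.42 ± 0.47), the mitochondrial carrier Ucp2 (4.38 ± 0.43) and Prp15 (5.47 ± 0.52) belonged to no list. Ppia, Fth1 and Calm2 have close copies in the genome, and since the probe sequences were not used here, signal from those copies cannot be told apart. The study also reported cross-reactivity of its slides, by which a probe may partly bind a gene other than the one named. That limit holds for all named members.

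Lists that gave 0 members were translation factors (5 genes on the array), lysosome and extracellular proteases (18), ion pumps (8), plasma and liver proteins (15) and nervous system and sensory receptors (56). The median level of the nervous system list was -1.30 and that of plasma and liver proteins -1.67, both under the array median. Of the 1061 named rows that could have been chosen 2.64% were members, so counts of 0 in the shorter lists are close to that share. Most members stayed without a function, since 172 had no gene name.

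The left-right spread of a row, the SD of its normalized log2 ratio of treated to control within groups, had a median of 0.257 for the members and 0.241 for all 4707 rows. It was 0.248 for the next 200 rows in brightness and 0.225 for the 600 rows after those. The members were less uniform than dimmer rows. A left-right SD above 0.5 was found for 46 members (23.0%), for 12.5% of the next 200 rows and for 7.6% of all rows, while the lower quartile was 0.177 for the members and 0.178 for all rows. Of the 21 members that reached 50000 units 14 were among these 46, and the other 32 stayed below it. Without those 21 members, left out after their values were seen, the median left-right SD was 0.244.

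**Figure D2:**
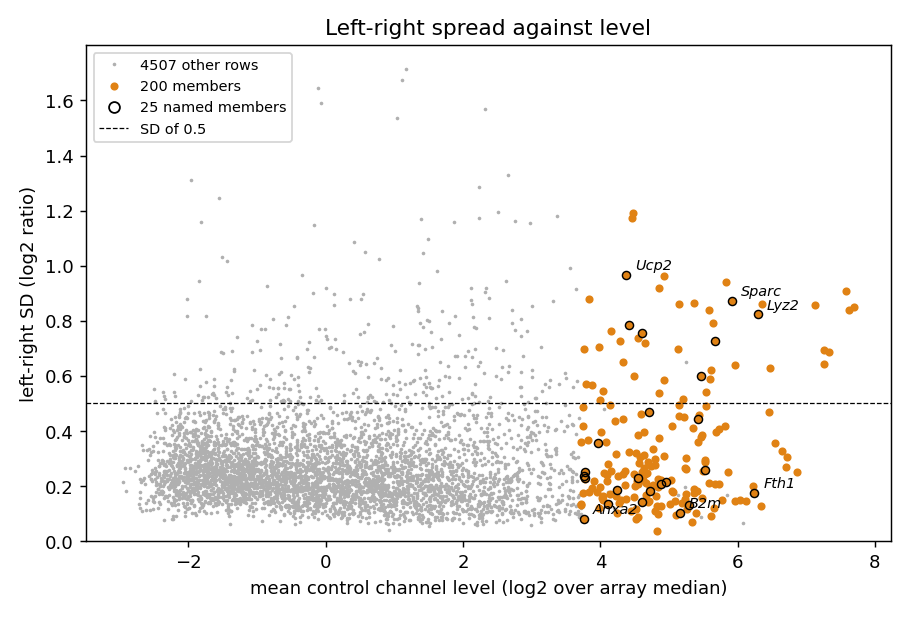
Left-right SD of the normalized log2 ratio against the mean control level for the 200 members (filled circles, 25 named ones outlined) and the other 4507 rows (dots). Most members lie near the bulk of the rows, and 46 lie above the dashed line at an SD of 0.5.

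The named members split in the same manner. Anxa2 had the smallest left-right SD (0.08), followed by B2m (0.10) and Cald1 (0.13). The normalized log2 ratio of B2m was 0.08, -0.21, -0.05, 0.02 and -0.12 in LOAD 1 to 5 and 0.14, -0.04, -0.11, -0.03 and -0.02 in SHAM 1 to 5, so all 10 values lay close to 0. Among all members the accession U37252, without a gene name, was the steadiest, with an SD of 0.037. It was singled out after its values were seen.

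The largest left-right SDs of named members were those of Ucp2 (0.97), Sparc (0.87) and Lyz2 (0.82), followed by Id2, Car2, Fbln5 and Prp15 (0.78 to 0.60). The ratio of Sparc was 0.02, 1.16, -0.05, 1.00 and -1.89 in LOAD 1 to 5, and 0.48, 0.04, 0.37, 0.01 and 0.15 in SHAM 1 to 5. Its LOAD values were high on 2 arrays, low on 1 and near 0 on the other 2, while its SHAM values were all above 0. Lyz2 had 0.14, 1.70, 0.33, 0.82 and -1.32 in LOAD 1 to 5, and 0.25, -0.47, -0.16, -0.22 and 0.44 in SHAM 1 to 5.

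These genes thus moved together. All 8 named members with a left-right SD above 0.5 had a higher ratio in LOAD 2 and LOAD 4 and a lower one in LOAD 5. With the dyes of LOAD 2 exchanged its signs would turn. Of the 46 members with such an SD 39 (84.8%) had these 3 signs, as had 20.1% of the other members, 51.4% of the 311 rows outside the members with such an SD and 20.8% of all rows outside the members. The median ratio of the 46 was 0.95, 0.82 and -1.18 on LOAD 2, LOAD 4 and LOAD 5, against 0.00, -0.08 and 0.04 for the other 154 members. The 46 were grouped by this same spread, so these counts describe them and test nothing.

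The same 46 members had median ratios of 0.28, 0.10 and 0.16 on SHAM 1, 3 and 5 (treated bone in Cy3). On SHAM 2 and SHAM 4 (treated bone in Cy5) these were -0.30 and -0.08. LOAD 1 and LOAD 3 (treated bone in Cy3) had -0.03 and -0.01. The SD within LOAD was larger than the SD within SHAM for 182 of 200 members (91.0%) and for 67.0% of all rows, with median SDs of 0.329 and 0.161 for the members. Without LOAD 2, LOAD 4 and LOAD 5, a choice made after their values were seen, the median left-right SD of the members was 0.148 (0.190 for all rows) and 14 members had an SD above 0.5.

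**Figure D3:**
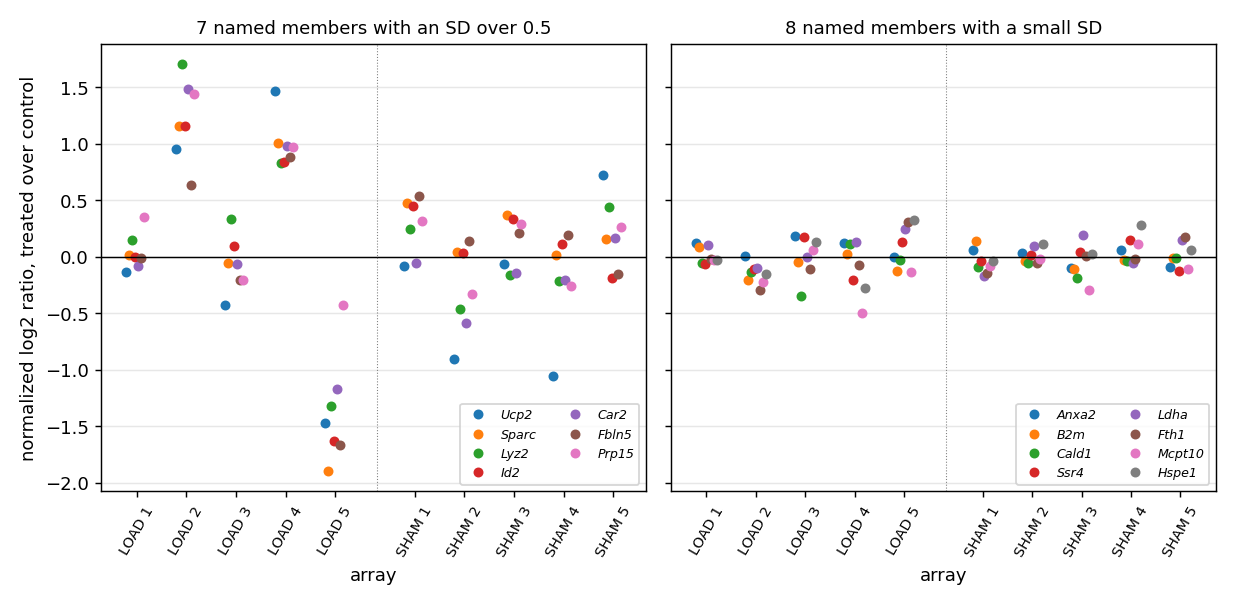
Ratio of the treated to the control tibia (log2, normalized) on each array for 7 named members with a left-right SD above 0.5 (left) and 8 with a small one (right), 1 point per gene. In the left panel the genes stand above 0 on LOAD 2 and LOAD 4 and below 0 on LOAD 5, and in the right panel they stay within 0.50 of 0.

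Loess normalization centres the bulk of the bright rows on each array at 0, so the levels before normalization were set beside these ratios. On LOAD 2 the median level of the 46 members was 4.96 in the control and 4.95 in the treated channel, while that of the other 154 was 5.11 in the control and 4.35 in the treated channel. On LOAD 4 the 46 were at 5.17 and 5.38 and the others at 5.49 and 4.84. On LOAD 5 the 46 were at 5.33 and 4.89 and the others at 4.97 and 5.38. Set against the array median, the channels thus differed by more for the steadier members than for the 46 on LOAD 2 and LOAD 4, and on LOAD 5 both sets differed, in opposite directions. The ratios show unequal change between the sets and not which of them moved. Across the 200 members the ratios of LOAD 2 correlated with those of LOAD 4 at r = 0.55 and with those of LOAD 5 at r = -0.74, and LOAD 4 with LOAD 5 at r = -0.67. These are descriptions across rows of pairs of arrays, which share no sample. Other array pairs reached r = -0.74 (LOAD 4 and SHAM 4) and 0.54 (SHAM 2 and SHAM 4).

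Dye orientation and other tissue were set beside the pattern. By their labels LOAD 2 and LOAD 5, where the 46 members went opposite ways, both had the treated bone in Cy5. LOAD 4 had it in Cy3. Over all rows LOAD 2 correlated at -0.32, -0.33 and -0.14 with the other Cy5 arrays, LOAD 5, SHAM 2 and SHAM 4. With the Cy3 arrays it correlated at 0.28 (LOAD 4), 0.20 (SHAM 1), 0.24 (SHAM 5), 0.00 (SHAM 3), -0.04 (LOAD 3) and -0.16 (LOAD 1). The dye orientation of LOAD 2 in these values is that of its labels. A code in the image names of the array headers was read as the scan batch. By it LOAD 2 fell with LOAD 1, SHAM 1 and SHAM 2, and LOAD 4 and LOAD 5 each with the SHAM array of the same number. The skeletal muscle markers (8 genes on the array, 0 of them members) had median ratios of -0.09, -1.06 and -0.60 on LOAD 2, LOAD 4 and LOAD 5, and of -0.97 on LOAD 3, where the 46 members had a median of -0.01. The summed level of the muscle list ranged from 4.76 to 6.07 in the control channels of LOAD rats and from 4.62 to 5.21 in those of SHAM rats. The part of dye, scan and muscle in the pattern was not tested.

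Between rats the control level of a member had a median SD of 0.472, against 0.362 for all rows, and it was 0.477 within arrays of the same control dye. The rat-to-rat SD exceeded the left-right SD for 147 of 200 members (73.5%) and for 80.7% of all rows. It was larger for B2m (0.43 against 0.10) and for Fth1 (0.47 against 0.18), while for Sparc (0.55 against 0.87), Lyz2 (0.47 against 0.82) and Ucp2 (0.43 against 0.97) the left-right SD was the larger. The level was not normalized beyond the array median, so the spread between rats also holds differences between hybridizations. The left-right SD came from loess-normalized ratios, so these comparisons set unlike scales side by side. With ratios centred on the array median only, the median left-right SD of the members was 0.499, above the rat-to-rat median of 0.472.

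Promoters were compared because members moved together. Of the 28 named members 20 had a promoter in the RefSeq table (build GRCr8, 250 bases before to 50 after the start), among them 5 of the 8 with a large left-right SD. The TATA motif TATAAA, searched on both strands of the 300 bases, was found in 5 of 20 members (25%), in 15.0% of the other 900 named genes on the array and in 14.3% of all 27457 promoters. The GC box GGGCGG was found in 13 of 20 (65%), against 51.6% and 34.9%, and CCAAT in 6 of 20 (30.0%), against 37.8% and 37.7%. The median GC content was 61.2% for the members and 58.7% for the other named genes.

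TATAAA was found in 0 of the 5 members with a large left-right SD that had a promoter and in 5 of the 15 other members. The GC box was found in 2 of 5 and in 11 of 15. The 120 bases before the start are shown for those 5 so that the members that moved together can be compared, with any of the 3 motifs on either strand in capitals.
Lyz2 (GRCr8, chr7:54798012-54798131, minus strand): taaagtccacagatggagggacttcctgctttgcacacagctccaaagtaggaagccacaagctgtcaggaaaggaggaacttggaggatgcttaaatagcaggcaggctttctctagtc
Sparc (GRCr8, chr10:40038817-40038936, minus strand): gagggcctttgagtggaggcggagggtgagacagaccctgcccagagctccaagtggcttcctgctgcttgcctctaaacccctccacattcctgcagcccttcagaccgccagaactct
Fbln5 (GRCr8, chr6:126742707-126742826, minus strand): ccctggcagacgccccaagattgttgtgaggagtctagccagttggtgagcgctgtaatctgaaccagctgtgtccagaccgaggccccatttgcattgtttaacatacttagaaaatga
Id2 (GRCr8, chr6:47470996-47471115, minus strand): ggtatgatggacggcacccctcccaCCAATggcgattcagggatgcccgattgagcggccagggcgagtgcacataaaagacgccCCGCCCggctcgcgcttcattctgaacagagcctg
Ucp2 (GRCr8, chr1:164251253-164251372, plus strand): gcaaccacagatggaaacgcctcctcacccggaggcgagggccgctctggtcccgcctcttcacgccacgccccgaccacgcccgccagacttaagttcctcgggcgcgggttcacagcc

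The same stretch is shown for Anxa2, B2m and Cald1, the steadiest named members, of which Anxa2 held TATAAA and 2 copies of GGGCGG here.
Anxa2 (GRCr8, chr8:78986132-78986251, plus strand): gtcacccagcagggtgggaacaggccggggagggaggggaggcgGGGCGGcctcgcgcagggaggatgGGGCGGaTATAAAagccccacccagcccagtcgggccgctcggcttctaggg
B2m (GRCr8, chr3:129549210-129549329, plus strand): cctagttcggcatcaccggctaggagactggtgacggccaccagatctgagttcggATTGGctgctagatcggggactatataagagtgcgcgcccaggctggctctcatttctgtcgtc
Cald1 (GRCr8, chr4:64233136-64233255, plus strand): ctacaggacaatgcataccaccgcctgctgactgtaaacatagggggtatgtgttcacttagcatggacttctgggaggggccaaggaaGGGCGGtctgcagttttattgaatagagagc

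A match is a description of these letters only, and with 5 and 15 promoters no difference between the sets can be read from the counts.

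The ratios of LOAD and SHAM used the control channel that also chose the members, so they are given as a description. The median normalized log2 ratio of the members was -0.013 in LOAD and 0.002 in SHAM (-0.007 and 0.003 over all rows). Loess brings such medians near 0 on each array. At a false discovery rate of 20% (limma with Benjamini-Hochberg adjustment over 4707 rows) 0 members and 0% of all rows passed in LOAD, in SHAM and in LOAD minus SHAM. The study itself reported genes under this limit in LOAD, from fewer rows after stricter spot filtering and with duplicate spots kept apart. At an unadjusted p under 0.05, 1 member had a LOAD ratio past the limit, where 3.34% of all rows did, and 1 had a SHAM ratio past it, where 0.68% did. In LOAD this was the accession S74342, at 0.47 (standard error 0.18), and in SHAM M12202, at 0.53 (standard error 0.24).

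No named member reached that limit in either group. In LOAD the members nearest to it on the higher side were Prp15 (0.42), Anxa2 (0.09), Lyz2 (0.34) and Ldha (0.07), and on the lower side Mcpt10 (-0.16), Cald1 (-0.09), Ephx1 (-0.12) and Anxa1 (-0.09). In SHAM they were Hspe1 (0.09), Dgkb (0.12), Fbln5 (0.18) and Sparc (0.21) on the higher side and Ppia (-0.16), Prdx2 (-0.11) and Cald1 (-0.08) on the lower side.

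Leaving out LOAD 5 changed this count. Without it 26 members (13%) had an unadjusted p under 0.05 in LOAD, 21 of them higher in the treated tibia, where 7.73% of all rows passed, and 15 of the 26 were among the 46 with a large left-right SD. The LOAD ratio of Lyz2 was then 0.75 and that of Sparc 0.53, against 0.34 and 0.05 with all arrays. The adjusted p in limma was 0.619 for both. With the dyes of LOAD 2 exchanged the same ratios were -0.34 and -0.42, those of Prp15 and Car2 went from 0.42 to -0.15 and from 0.23 to -0.37, those of Ucp2, Id2 and Hmgb2 (0.08, 0.09 and 0.10) turned to -0.30, -0.37 and -0.25, and that of Fbln5 went from -0.07 to -0.33. The 200 brightest rows were chosen anew under that exchange, and 195 of them were members. Of these 200 rows 14 had an unadjusted p under 0.05, where 5.14% of all rows did. Among the named members Srgn (0.24), Sod1 (0.22), Calm2 (0.22) and Prdx2 (-0.20) had such a p, each with an adjusted p of 0.853 in limma. The mean LOAD ratio of these genes thus depended on single arrays.

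The difference LOAD minus SHAM, the net effect of bending over squeezing, did not choose the members. Its median over the members was -0.017 on the log2 scale and -0.007 over all rows. Loess centres the bulk of the bright rows at 0 on each array, so a median near 0 follows from the normalization. With arrays centred on the median only it was -0.219 for the members and -0.034 for all rows. An unadjusted p under 0.05 was found for 0 of 200 members and for 1.49% of all rows. Without LOAD 5 it was found for 11 members and 3.78% of all rows, and without LOAD 2 for 4 members and 84 of 4707 rows. With the dyes of LOAD 2 exchanged it was found for 8 of the 200 rows chosen anew and 2.04% of all rows. With all arrays the lowest adjusted p of a member was 0.999 in limma. Of the members 91 had a higher ratio in LOAD than in SHAM and 109 a lower one (45.5% higher, against 47.8% of all rows). A difference beyond 0.5 was found for 4 members (2.0%) and for 1.0% of all rows.

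Among the named members Ppia had the lowest p for this difference, at 0.20 (95% interval -0.09 to 0.50, exact two-sided permutation p = 0.159, 5 against 5 arrays). Its ratio was -0.04, 0.20, -0.08, 0.37 and -0.22 in LOAD 1 to 5 and -0.41, 0.09, -0.21, -0.12 and -0.15 in SHAM 1 to 5, so the groups overlapped. Without LOAD 4 it was 0.12. Prp15 differed by 0.37 (95% interval -0.34 to 1.08), with 0.12 without LOAD 2, 0.23 without LOAD 4 and 0.58 without LOAD 5. Car2 differed by 0.40 (-0.49 to 1.28), with 0.08 without LOAD 2, 0.21 without LOAD 4 and 0.75 without LOAD 5. On the lower side stood Ephx1 at -0.20 (-0.64 to 0.24), with -0.12, -0.05 and -0.37 without LOAD 2, LOAD 4 and LOAD 5. Dgkb was at -0.18 (-0.72 to 0.35, and 0.02 without LOAD 4). Mcpt10 was at -0.09 (-0.36 to 0.19, with -0.04 without SHAM 4 and -0.00 without LOAD 4). The normalization also moved these values. With arrays centred on the median only, the differences were 0.01 for Ppia, 0.14 for Prp15 and 0.20 for Car2. For Ephx1, Dgkb and Mcpt10 they were -0.37, -0.38 and -0.27.

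The precision differed with the left-right spread. For Anxa2 the difference was 0.09 with a 95% interval from -0.11 to 0.29, though it was -0.08 when arrays were centred on the median only. For B2m it was -0.05 (-0.26 to 0.17) and for Fth1 -0.03 (-0.30 to 0.24). For Sparc it was -0.17 (-1.18 to 0.85), for Lyz2 0.37 (-0.59 to 1.32) and for Ucp2 0.36 (-0.76 to 1.47). For Anxa2, B2m and Cald1 the intervals ended within 0.30 of 0.

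**Figure D4:**
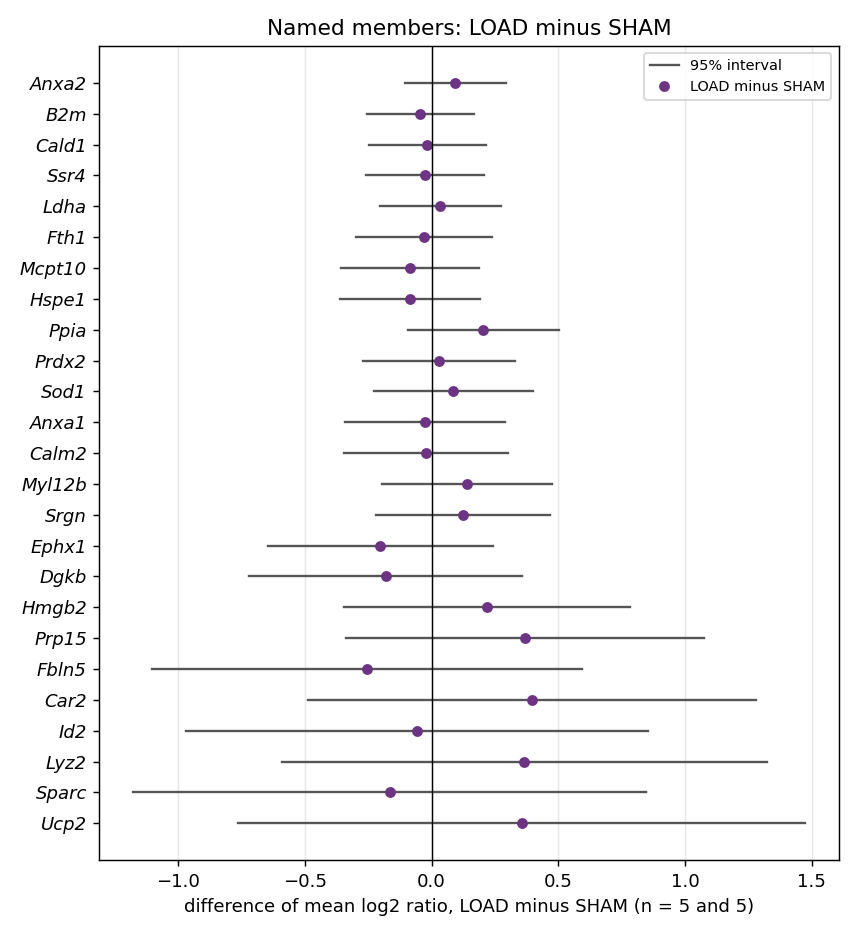
Difference of the mean normalized log2 ratio, LOAD minus SHAM (n = 5 and 5), with its 95% interval from limma for 25 named members, ordered by left-right SD from Anxa2 at the top to Ucp2 at the bottom. All intervals include 0, and their half-width grows from 0.20 to 1.12.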

How the data were processed

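Two-colour arrays of treated and contralateral tibiae of 10 rats were analysed. Spots were quantified by the authors in BlueFuse after scanning. The deposited values combine duplicate spots, whereas the study's own tests kept duplicates apart. The deposited files hold an intensity per channel that is not normalized, beside which the authors' software gave each spot a confidence and each channel a probability of signal (each a fraction). The deposited matrix holds log2 ratios that equal those of these intensities to within 0.00053 and was not used further.

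The 200 members were ranked on log2 control intensity minus the array median. For ratios, values of spots below 0.11 in confidence were removed, log2 ratios were normalized by loess within arrays (span 0.3, 4 iterations) and turned to treated over control, and rows with more than 1 missing value were left out. Group means and their difference were fitted in limma 3.58.1 (R 4.3.3) over 4707 rows, with Benjamini-Hochberg adjustment and a false discovery rate of 20%. Single genes were also tested by exact permutation. The number of arrays limits the precision. Each array is 1 rat. Print-tip loess and a duplicate spot term could not be run on combined spots.

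Names came from RefSeq accessions (1177 rows) and the study's gene table (7 rows), and 3619 rows had none. The members, gene lists and tests were chosen with earlier results of these data known. Named are the 15 brightest named members, the 4 brightest of each list, the 4 with the lowest p in each direction of each comparison, the 4 largest and smallest left-right SDs and 3 on each side of rank 200. Alternatives changed the normalization, filters, offset, member choice, arrays, dyes, batch and prior. Protein length was not analysed here, and 3 named members are not reported here.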

Additional observations from a re-analysis of the deposited data

Results flagged for a closer look

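Of 56 groups of 5 log2 ratios (28 named members, LOAD and SHAM), 2 held an array far from the other 4, where chance alone marks about 1 group in 20. Anxa1, an annexin that binds membranes in the presence of calcium, had a ratio of -0.55 on LOAD 2, with the other LOAD arrays between -0.07 and 0.07. Srgn had a ratio of -0.28 on SHAM 4, with the other SHAM arrays between -0.07 and 0.00. No named member had all LOAD arrays on one side of 0 and all SHAM arrays on the other.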

How the results depend on the processing

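Across all settings run, limma placed 0 members under a false discovery rate of 20% in LOAD, SHAM or LOAD minus SHAM. Over all rows 9 passed it in LOAD and 2 in LOAD minus SHAM without normalization, and 0 under the other settings. At an unadjusted p under 0.05 the counts of members ranged from 0 to 26, 0 to 5 and 0 to 11. Those of all rows ranged from 25 to 364, 12 to 73 and 9 to 178. Without normalization the median ratio of the members was -0.361 in LOAD and -0.375 in SHAM, when the median of all rows was -0.229 and -0.421, and the median left-right SD was 1.01. With median centring the medians were -0.159 in LOAD, 0.055 in SHAM and -0.219 for LOAD minus SHAM (-0.027, 0.009 and -0.034 over all rows). With the dyes of LOAD 2 exchanged the median over the rows chosen anew was -0.089 in LOAD and -0.089 for the difference. The cause was not tested. Leaving out 1 array at a time gave medians from -0.050 to 0.007 in LOAD, from -0.008 to 0.014 in SHAM and from -0.043 to -0.002 for the difference, and a median left-right SD from 0.216 to 0.274. The difference of Anxa2 turned to -0.08 with median centring and that of Dgkb to 0.02 without LOAD replicate 4 (from -0.32 to 0.02 over the arrays left out). Other choices of members, including those made on the treated channel or on the other group's controls, moved no median by more than the spread between arrays.

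Same-numbered LOAD and SHAM arrays did not deviate together (correlations from -0.408 to 0.067 over 4472 rows). Whether the numbers pair rats cannot be read from this, since LOAD 4 and SHAM 4, and LOAD 5 and SHAM 5, had opposite dye orientations. By the code in the image names, arrays of the same number shared a scan batch. With the replicate block the median difference was -0.017. An unadjusted p under 0.05 was then found for 2 members in place of 0, and for 65 of 4707 rows in place of 70.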
